A study of Mus musculus with 6 samples.

Results

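The genes described here build and control the DNA replication machinery. They are 56 genes chosen by name from the 54532 genes of the deposited table, and cover the origin recognition complex, licensing factors, the MCM helicase and its activators, the replicative polymerases, the sliding clamp and its loader, single-strand binding protein, nucleotide supply, E2F transcription factors and chromatin assembly behind the fork. All 56 passed the filter on low counts. They were measured by bulk RNA sequencing in mouse T cells labelled naive CD4+, taken from spleen lymphocytes of C57BL/6 animals, in 3 libraries from cells given NETs and 3 from cells given vehicle. Neutrophil extracellular traps (NETs) consist of chromatin and granule proteins expelled by neutrophils. Both groups spent 72 h in culture with CD3/CD28 beads, IL-2 and neutralising antibodies to IFNγ and IL-4, so vehicle cells were activated as well. Animal age, NETs source and NETs dose are not given here, and the labels do not say whether replicates are separate animals or cultures. The p-values therefore cover only library-to-library spread, possibly technical.

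A naive T cell is quiescent and must build the replication machinery before it can divide. In late mitosis and before S phase, the origin recognition complex, Cdc6 and Cdt1 load the MCM helicase onto DNA, a step called licensing, and geminin (Gmnn) blocks Cdt1 afterwards so that DNA is copied only once per cycle. In S phase, Cdc45 and the GINS complex join MCM to form the active helicase, primase starts each strand, and polymerases held by the PCNA clamp extend it. Transcription of most of these genes is driven by E2F factors, which are released when cyclin-dependent kinases inactivate the Rb proteins, and is therefore a common readout of cells entering the cycle.

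Most replication genes averaged slightly higher in NETs libraries, but none passed the test over all genes. Of the 56 genes, 50 had a log2 fold change (NETs over vehicle) above 0, against 50.2% of all 13900 genes tested. Their median log2 fold change was 0.21, with a range of −0.30 to 0.58, and the median over all genes tested was 0.00. In edgeR (quasi-likelihood, Benjamini-Hochberg adjustment), 0 of 56 passed an adjusted p of 0.05 (0% of all genes tested did), and the smallest adjusted p among them was 0.223. At an unadjusted p under 0.05, 25 genes were higher with NETs (44.6% of the 56, against 6.72% of all genes tested), and 1, Orc4, was lower (6.06% of all genes). The NETs libraries lay wholly above the vehicle libraries in 11 genes (19.6%, against 7.68% of all genes) and wholly below in 2, Orc4 and E2f7 (3.57%, against 9.04%).

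**Figure D1:**
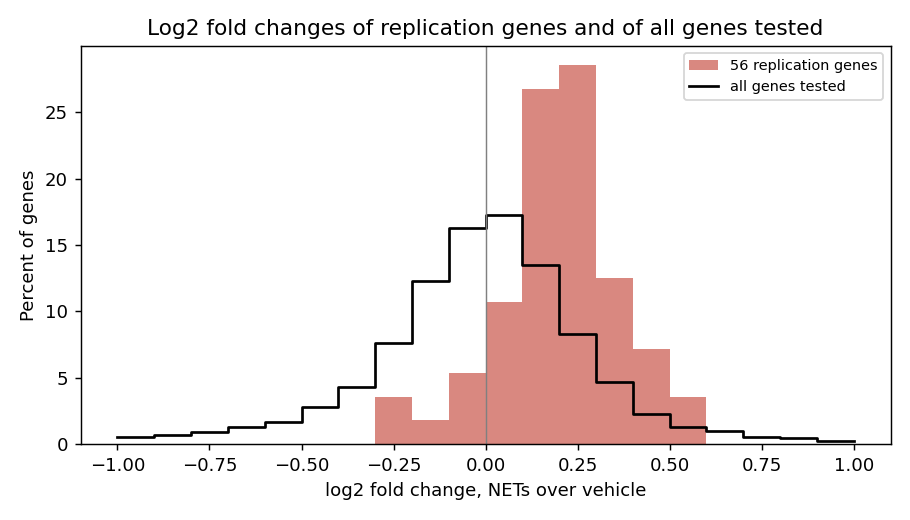
Histogram of log2 fold changes, NETs over vehicle (x axis), as a percent of genes (y axis) for the 56 replication genes (bars) and all 13900 genes tested (line), in bins of 0.1; 2.01% of all genes and 0 of the 56 lie outside the plotted range. The replication genes centre on 0.21, with a few below 0, while all genes centre on 0.00.

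These counts depended on single libraries and on the test. Without vehicle replicate 3, edgeR called 13 of the 56 genes, all higher, against 1.51% of all genes tested called higher: Cdc6, Gmnn, Mcm2, Mcm3, Mcm5, Mcm6, Pole3, Pole4, Pcna, Rpa2, E2f1, Chaf1a and Uhrf1. Leaving out any other library gave 0 calls among the 56, and the 25 genes higher before adjustment became 10 without NETs replicate 1 (3.03% of all genes higher in that fit), 9 without vehicle replicate 2 (4.0%) and 35 without vehicle replicate 3 (11%). Unfiltered edgeR gave 10 calls, all higher (Cdc6, Mcm2, Mcm3, Mcm5, Gins2, Pole4, Pcna, Rpa2, E2f1 and Uhrf1). In that fit 0.775% of 24780 genes were called higher, a base of all genes with any read. DESeq2 gave no adjusted p for Orc1, Gins1 and Fen1, and of the other 53 it called 3, Gins2, Pole4 and Pcna. It called 0.291% of the same 24780 genes higher, a base that also holds genes with no adjusted p. By limma-voom and by limma on FPKM, 0 of the 56 were called. All 56 genes had a log2 fold change in each of these fits, with a median between 0.14 and 0.28.

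The libraries did not separate by treatment on these genes. The median over the 56 genes of log2 CPM (counts scaled to the library total, with 0.5 added) minus the vehicle mean was 0.27, 0.27 and 0.08 in NETs replicates 1 to 3, against 0.03, −0.19 and 0.15 in vehicle replicates 1 to 3. Vehicle replicate 3 thus lay above NETs replicate 3, and vehicle replicate 2 was the lowest library. Vehicle replicate 2 had the lowest CPM of all 6 libraries in 47 of the 56 genes, against 25.2% of all genes tested, and NETs replicates 1 and 2 were the top pair in 31 of 56, against 8.76% of all genes. Summed over the 56 genes the level was 10430, 10260 and 9195 CPM in NETs replicates 1 to 3, against 8697, 7499 and 9533 CPM in vehicle replicates 1 to 3, which is between 0.75% and 1.04% of all counts. In bulk RNA, a larger share of cycling cells and more of these transcripts per cell cannot be told apart.

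**Figure D2:**
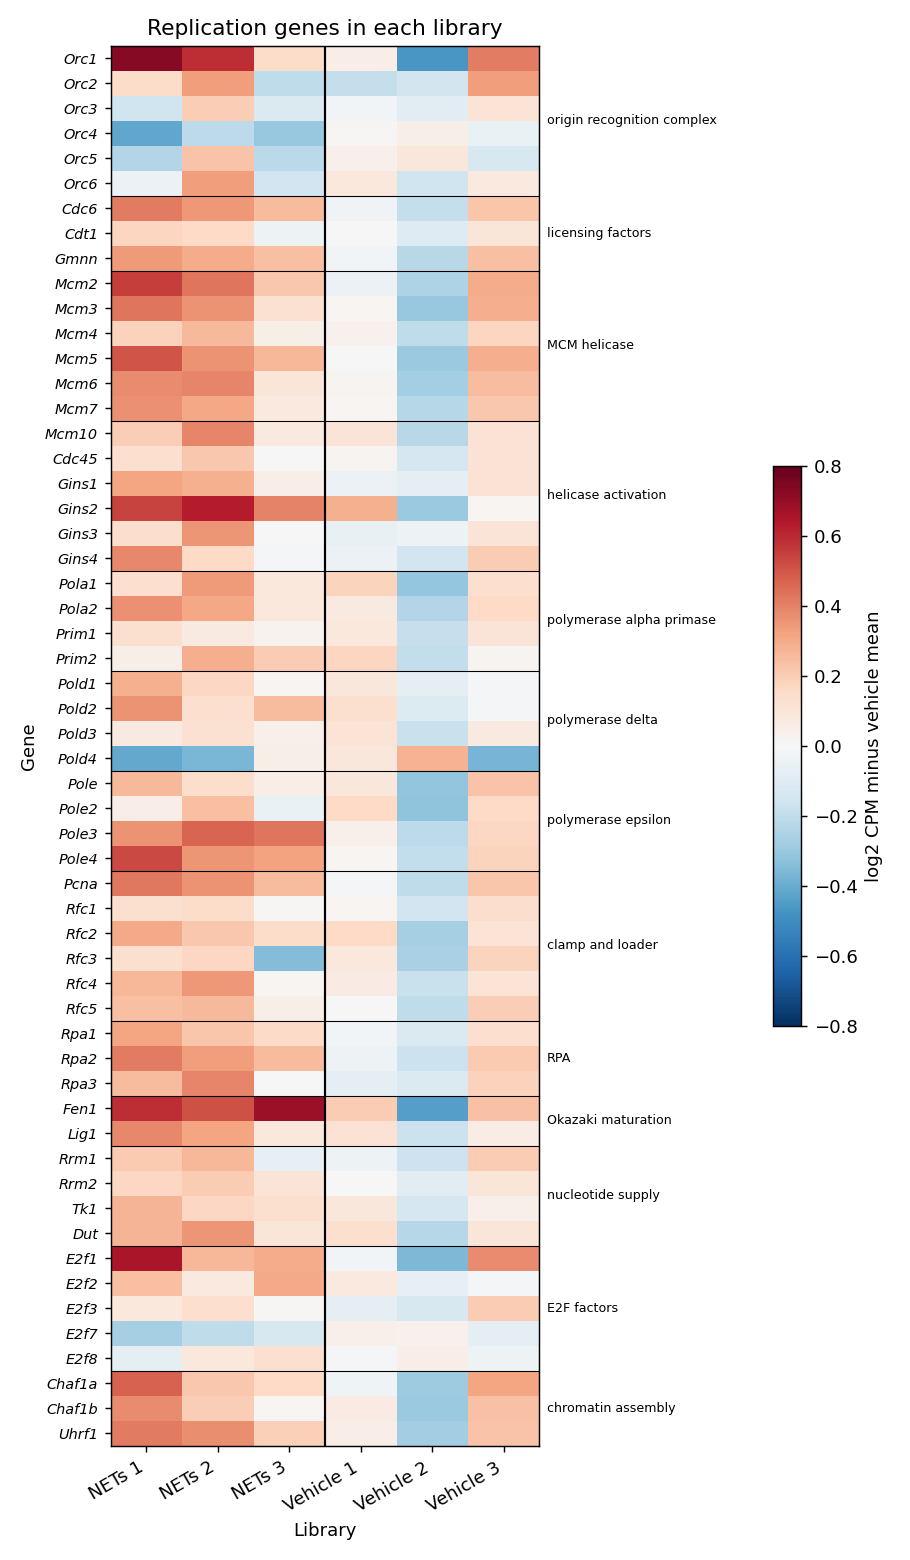
Log2 CPM minus the mean of the vehicle libraries (colour) for each of the 56 genes (rows, grouped by role) in the 3 NETs and the 3 vehicle libraries (columns). NETs replicates 1 and 2 and vehicle replicate 3 are mostly red and vehicle replicate 2 mostly blue, while Orc4, Pold4 and E2f7 run the other way in NETs replicates 1 and 2.

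Total counts per library ranged from 15657622 to 18655997 and TMM scaling factors from 0.988 to 1.01, and on the first principal component of all genes vehicle replicate 3 lay beside NETs replicate 2 (−11.4 and −11.9). Markers of T cells were abundant, with Cd4 at 872 to 898 CPM with NETs and 854 to 955 CPM with vehicle. All 8 T cell markers were detected, and their summed level was 3729, 3801 and 4030 CPM in NETs replicates 1 to 3, against 3949, 4293 and 3744 CPM in vehicle replicates 1 to 3. The library with the lowest replication genes, vehicle replicate 2, thus had the highest sum, and the part of this in the results was not tested. The 10 neutrophil markers summed to 5.07 to 6.25 CPM with NETs and 2.68 to 3.83 CPM with vehicle. Only S100a8 and S100a9 lay wholly above vehicle, S100a9 at 0.932 to 1.31 CPM with NETs and 0 reads in all vehicle libraries. Mpo, the most abundant of the 10, overlapped between groups (1.85 to 2.39 CPM with NETs and 0.933 to 2.36 CPM with vehicle). Ltf, Lcn2 and Prtn3 overlapped as well, each with its highest library in the vehicle group. For other cells, 7 monocyte and dendritic cell markers summed to 39.0 to 51.2 CPM with NETs and 28.1 to 39.8 CPM with vehicle. Most of this was Lyz2 (30.75 to 38.8 and 19.35 to 30.1 CPM). The sums were 394 to 421 and 419 to 480 CPM for 6 B cell markers (nearly all Ighm, with Cd79a at 3.32 to 4.43 and 4.02 to 5.41 CPM). Cd79b ran the other way, at 5.44 to 6.58 CPM with NETs and 3.61 to 5.52 CPM with vehicle, and both Cd79 genes overlapped between groups. For 2 CD8 genes the sums were 13.1 to 19.5 and 18.4 to 20.8 CPM, mostly Cd8b1 (12.2 to 17.1 and 16.5 to 18.8 CPM). For 4 NK cell genes they were 4.37 to 6.69 and 5.88 to 10.1 CPM. Nearly all of that was Eomes (4.14 to 6.415 and 5.75 to 10.1 CPM), and Klra8 had 0 reads.

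Replication genes were among the more abundant transcripts. In the authors' FPKM, a level per length, 54 of the 56 lay above the median of all genes tested (14.3 FPKM), and their own median was 67.7 FPKM. Pcna stood highest, at 776 ± 45.5 FPKM with NETs and 615 ± 90.6 FPKM with vehicle (SD, n = 3 each), above 99.1% of the genes tested. Next came the reductase subunit Rrm2 (458 ± 16.0 FPKM with NETs and 411 ± 27.2 with vehicle), Mcm7 (390 ± 40.4 and 329 ± 49.7) and Rrm1 (308 ± 36.9 and 281 ± 37.3). The first 6 places were the same in both groups, with Mcm3 (282 ± 31.0 FPKM with NETs and 231 ± 46.7 with vehicle) and Mcm4 (254 ± 18.9 and 228 ± 29.1) after Rrm1. Mcm3 and Mcm4 differed by less than the SD of Mcm3 in both groups. At the other end were Orc1 (19.8 ± 3.96 FPKM with NETs and 14.3 ± 4.18 with vehicle), E2f3 (13.8 ± 0.590 and 13.2 ± 1.70) and the flap endonuclease Fen1 (8.72 ± 0.546 and 5.88 ± 1.42). Fen1 shares 84.2% of its exonic bases with Tmem258 and Gm10143 on the opposite strand, and how such reads were counted is not given.

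**Figure D3:**
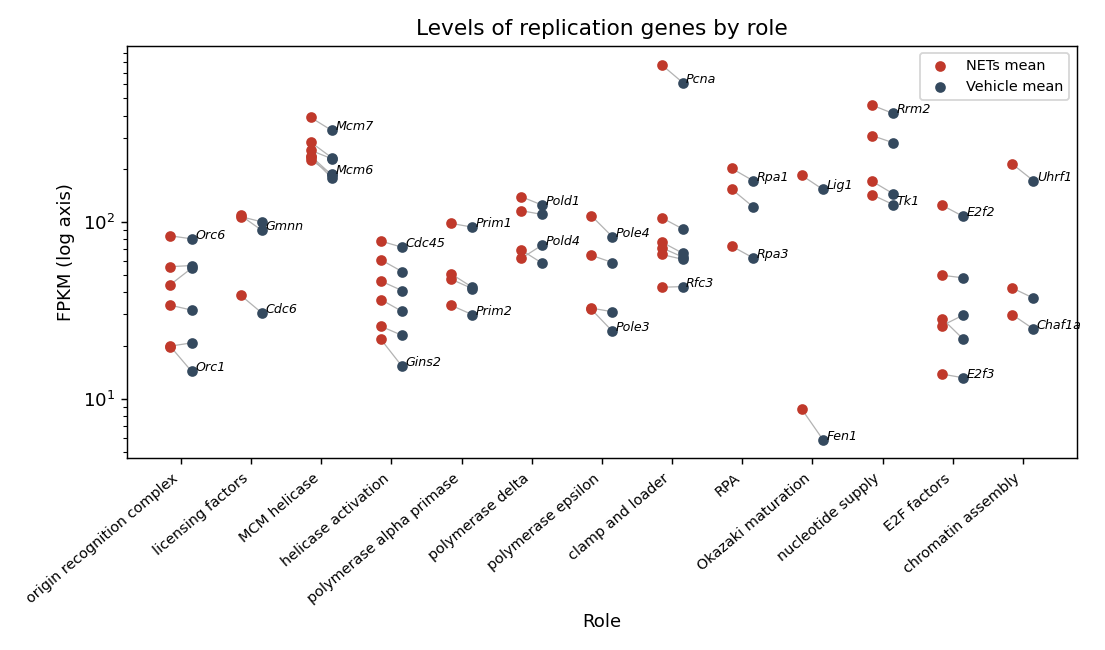
Mean FPKM (y axis, log scale) of each of the 56 genes by role (x axis), for NETs (left point of each pair) and vehicle (right point) libraries, 3 each; lines join the same gene, and the gene highest and the gene lowest with NETs in each role are named. Pcna is highest at 776 FPKM with NETs and 615 FPKM with vehicle, and Fen1 lowest.

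Promoter letters played no part in the choice of these genes, but they were chosen by role, and most are known to be driven by E2F. RefSeq promoter windows (build GRCm38.p6, 250 bases before to 50 after a start site) were matched for 48 of the 56 genes and searched for E2F-type letters, namely the string TTCGCGC, the string TTGGCGC, the string TTCCCGC and the string TTGCCGC, on both strands, where overlapping matches count separately. At least 1 window held a match in 33 of the 48 genes (68.8%), against 10.9% of the 27025 genes with a window. Those 27025 were not limited to genes tested here, so the shares do not compare genes of like expression. A window held 2 or more matches in 13 genes, against 1.37% of the 27025. The windows of these genes were also richer in G and C, with a median of 61.8% against 52.7% over all windows. Stretches that hold a match are shown for 8 genes and for Orc4 and E2f7, which were lower with NETs in all libraries. The 8 were picked without a set rule and have log2 fold changes from 0.29 to 0.58. Genes with matches and smaller changes are not shown, among them Pola1 (4 matches in a window, log2 fold change 0.19), Cdt1 (2, 0.11) and Rfc3 (2, 0.00). Whether matches go with the fold changes was not tested. Capitals mark the matched letters, and each stretch is written 5′ to 3′ on the gene's strand. Mcm6 (chr1:128359706-128359825, minus strand, 120 to 1 bases before the start site) and Mcm5 (chr8:75109329-75109388, plus strand, 180 to 121 bases before) hold overlapping matches on opposite strands.
Mcm6: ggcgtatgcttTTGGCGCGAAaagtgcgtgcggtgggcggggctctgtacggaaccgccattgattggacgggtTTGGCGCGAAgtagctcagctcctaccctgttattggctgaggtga
Mcm5: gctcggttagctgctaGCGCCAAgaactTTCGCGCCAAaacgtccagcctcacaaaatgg
The next 6 are the last 60 bases before the start site of Orc1 (chr4:108579394-108579453, plus), Pole3 (chr4:62525015-62525074, minus), Pole4 (chr6:82652875-82652934, minus), Rpa2 (chr4:132768300-132768359, plus), Fen1 (chr19:10203922-10203981, minus) and Uhrf1 (chr17:56303277-56303336, plus).
Orc1: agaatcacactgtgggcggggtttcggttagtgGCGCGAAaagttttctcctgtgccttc
Pole3: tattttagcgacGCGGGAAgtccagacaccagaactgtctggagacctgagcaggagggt
Pole4: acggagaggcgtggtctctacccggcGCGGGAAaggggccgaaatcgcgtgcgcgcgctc
Rpa2: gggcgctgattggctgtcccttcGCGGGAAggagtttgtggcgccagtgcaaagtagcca
Fen1: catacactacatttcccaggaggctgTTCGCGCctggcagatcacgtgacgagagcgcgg
Uhrf1: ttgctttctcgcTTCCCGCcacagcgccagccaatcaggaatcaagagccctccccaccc
The Orc4 stretch (chr2:48949388-48949447, minus) runs from 180 to 121 bases before the start site, and the E2f7 stretch (chr10:110745329-110745388, plus) from 110 to 51 bases before it.
Orc4: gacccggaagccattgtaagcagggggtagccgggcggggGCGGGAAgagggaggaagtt
E2f7: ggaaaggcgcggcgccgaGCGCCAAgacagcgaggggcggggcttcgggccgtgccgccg
A match is a description of letters and not a bound site. The windows of Mcm2, Pcna and E2f1, all with a log2 fold change of at least 0.35, held none of these letters.

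The origin recognition complex, which marks origins on DNA, was split in direction: 3 of its 6 genes stood above 0 and their median was 0.03. Orc1, the subunit whose protein in mammals is made and destroyed once per cycle, had 22.9, 20.8 and 15.3 CPM with NETs against 14.4, 10.0 and 18.3 CPM with vehicle. Vehicle replicate 3 lay within the NETs range (log2 fold change 0.48, SE 0.21; edgeR adjusted p = 0.359). Orc4 (ENSMUSG00000026761; chromosome 2, 48902824 to 48950277) had 45.2, 52.2 and 49.0 CPM with NETs against 60.6, 62.3 and 58.1 CPM with vehicle, so that all NETs libraries lay below all vehicle libraries (log2 fold change −0.30, SE 0.10; edgeR adjusted p = 0.262). The other 4 subunits stood at 0.10 for Orc2, −0.01 for Orc3, −0.05 for Orc5 and 0.07 for Orc6, less than 1 SE each. Within the summed FPKM of the complex, Orc1 took 7.7% ± 1.48 with NETs and 5.5% ± 1.27 with vehicle, and Orc4 took 17.4% ± 1.83 and 21.3% ± 2.11. The Orc4 shares overlapped between groups, with 19.4% in NETs replicate 3 and 19.2% in vehicle replicate 3. The Orc1 share was 6.7% in both of these libraries.

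Among the licensing factors, Cdc6, the ATPase that helps load MCM, had 129, 123 and 115 CPM with NETs against 94.5, 84.6 and 112 CPM with vehicle. The groups did not overlap, though vehicle replicate 3 came close to NETs replicate 3 (log2 fold change 0.34, SE 0.10; edgeR adjusted p = 0.223). Geminin (Gmnn), the inhibitor of Cdt1, had 88.9, 86.2 and 82.9 CPM with NETs against 69.2, 60.4 and 83.1 CPM with vehicle, where vehicle replicate 3 stood just above NETs replicate 3 (log2 fold change 0.29, SE 0.11; edgeR adjusted p = 0.289). Cdt1 itself stood at 0.11 (SE 0.09). The ratio of Cdt1 to Gmnn in FPKM was 1.002, 1.02 and 0.925 with NETs against 1.15, 1.22 and 1.02 with vehicle, and the groups overlapped.

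The MCM helicase genes encode the ring that unwinds DNA, and all 6 had the same order of libraries. For each of Mcm2 to Mcm7, NETs replicates 1 and 2 were the top pair, followed by vehicle replicate 3, NETs replicate 3, vehicle replicate 1 and vehicle replicate 2. This order of libraries was found in 13 of the 56 replication genes and in 1.57% of all genes tested. Mcm2 (ENSMUSG00000002870; chromosome 6, 88883474 to 88898780) had 343, 316 and 272 CPM with NETs against 226, 197 and 287 CPM with vehicle (log2 fold change 0.40, SE 0.12; edgeR adjusted p = 0.227). Mcm5 (ENSMUSG00000005410; chromosome 8, 75109569 to 75128439) had 514, 465 and 437 CPM with NETs against 364, 296 and 444 CPM with vehicle (log2 fold change 0.37, SE 0.12; edgeR adjusted p = 0.251). Both sets overlapped through vehicle replicate 3. The log2 fold changes were 0.30 for Mcm3, 0.29 for Mcm6, 0.26 for Mcm7 and 0.17 for Mcm4. All but Mcm4, 5 of the 6 genes, were higher at an unadjusted p under 0.05 by edgeR (6.72% of all genes tested). With vehicle replicate 3 left out, Mcm2 stood at 0.56, Mcm5 at 0.53, Mcm3 at 0.46 and Mcm6 at 0.42, each past the threshold. With NETs replicate 1 left out instead, these genes stood at 0.32, 0.31, 0.24 and 0.25 in the same order, and none passed. Vehicle replicate 2 was the lowest library in each of these genes, and none passed without it either. Of the summed MCM FPKM, Mcm4 gave 14.8%, 16.2% and 16.2% with NETs against 17.4%, 17.8% and 16.3% with vehicle, and Mcm7 gave 24.2%, 24.1% and 23.8% with NETs against 24.8%, 25.2% and 24.1% with vehicle. Mcm2 gave 14.3% ± 0.398 with NETs and 13.3% ± 0.493 with vehicle, Mcm5 gave 14.6% ± 0.661 and 13.7% ± 0.418, Mcm3 gave 17.4% ± 0.266 and 17.2% ± 0.540, and Mcm6 gave 13.9% ± 0.407 and 13.9% ± 0.152 (SD, n = 3 each). The share of Mcm4 was thus lower in all NETs than in all vehicle libraries, though by little between its nearest libraries, and the shares were not tested.

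**Figure D4:**
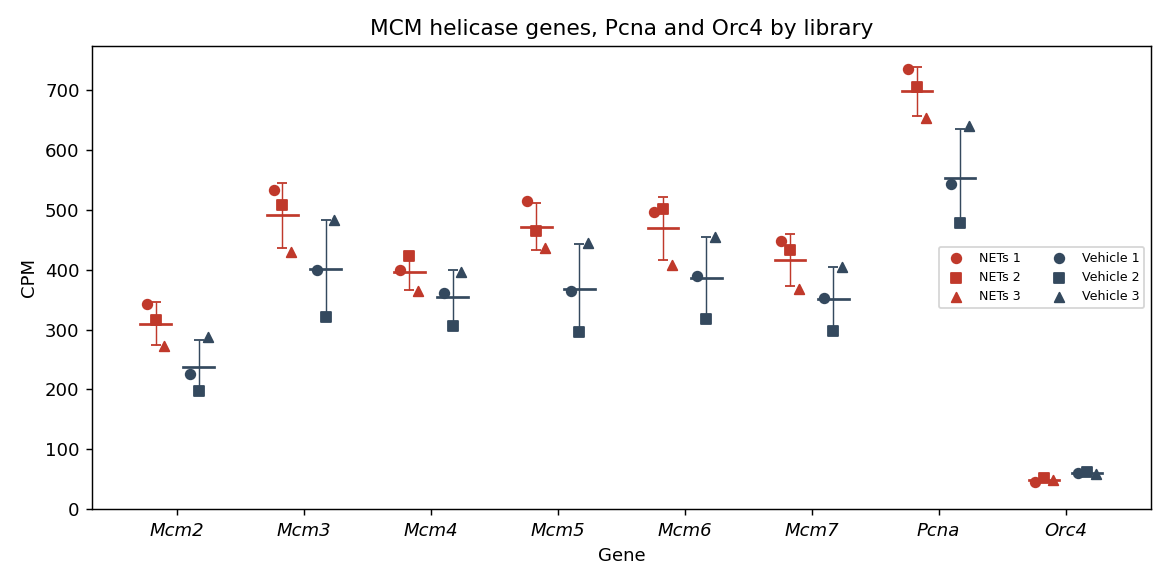
CPM (y axis, from 0) of the 6 MCM genes, Pcna and Orc4 in each of the 3 NETs (left, red) and 3 vehicle (right, dark) libraries; symbols give the replicate, lines the mean and bars the SD. In the MCM genes vehicle replicate 3 lies above NETs replicate 3 and vehicle replicate 2 is lowest, while all NETs libraries lie above all vehicle libraries for Pcna and below them for Orc4.

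Of the genes that turn the loaded ring into a moving helicase, all 6 had a log2 fold change above 0, with a median of 0.21. Gins2, a GINS subunit (ENSMUSG00000031821; chromosome 8, 120578633 to 120589304), had 46.8, 49.7 and 42.5 CPM with NETs against 39.3, 26.2 and 32.5 CPM with vehicle. All NETs libraries lay above all vehicle libraries (log2 fold change 0.52, SE 0.14; edgeR adjusted p = 0.223). Of its exonic bases, 67.3% are shared with Gse1 on the opposite strand, which averaged 109 ± 8.06 CPM with NETs and 118 ± 18.4 CPM with vehicle, so reads of both genes may be mixed. Mcm10, which helps start the helicase, stood at 0.23 (SE 0.11), Gins1 at 0.23, Gins4 at 0.19, Gins3 at 0.18 and Cdc45 at 0.13, and their groups overlapped.

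Polymerase alpha and primase lay down the primers, and their 4 genes ranged from 0.08 for the catalytic primase Prim1 to 0.26 for Pola2 (SE 0.11). In polymerase epsilon, the leading-strand enzyme, Pole3 and Pole4 are small histone-fold subunits and Pole is the catalytic subunit. Pole3 had 42.5, 45.7 and 44.6 CPM with NETs against 34.0, 28.6 and 37.1 CPM with vehicle (log2 fold change 0.42, SE 0.12; edgeR adjusted p = 0.223). Pole4 had 99.7, 88.2 and 86.4 CPM with NETs against 69.8, 60.4 and 78.3 CPM with vehicle (0.41, SE 0.10; edgeR adjusted p = 0.223). In both genes all NETs libraries were above all vehicle libraries, whereas Pole stood at 0.15 (SE 0.11) and Pole2 at 0.08 (SE 0.13), with overlapping groups. The difference between subunits was not tested.

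In polymerase delta, the lagging-strand enzyme, Pold2 had 59.3, 50.7 and 55.0 CPM with NETs against 50.4, 42.7 and 45.7 CPM with vehicle, without overlap (log2 fold change 0.26, SE 0.11; edgeR adjusted p = 0.328). The catalytic subunit Pold1 stood at 0.17 and Pold3 at 0.08, SE 0.09 each. The small accessory subunit Pold4 had 50.03, 51.5 and 68.5 CPM with NETs against 70.8, 80.4 and 51.4 CPM with vehicle. It was highest in vehicle replicate 2 and low in NETs replicates 1 and 2 and vehicle replicate 3 (log2 fold change −0.24, SE 0.16; edgeR adjusted p = 0.551). Without vehicle replicate 2 the value was −0.09, and without vehicle replicate 3 it was −0.40.

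PCNA is the ring that tethers polymerases to DNA and also recruits repair and chromatin factors. Pcna (ENSMUSG00000027342; chromosome 2, 132249162 to 132253314) had 735, 705 and 654 CPM with NETs against 543, 478 and 640 CPM with vehicle. All NETs libraries lay above all vehicle libraries, although NETs replicate 3 and vehicle replicate 3 were close (log2 fold change 0.35, SE 0.10; edgeR adjusted p = 0.223). Its named pseudogene Pcna-ps2 took 316 reads over the 6 libraries. The loader genes stood at 0.22 for Rfc2 (SE 0.10) and Rfc4 (SE 0.11), 0.19 for Rfc5 and 0.10 for Rfc1, the large subunit. Rfc3 stood at 0.00 (SE 0.14), with 52.2, 53.6 and 37.5 CPM with NETs against 50.6, 39.9 and 54.2 CPM with vehicle, so that its lowest and highest libraries were NETs replicate 3 and vehicle replicate 3.

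RPA coats single-stranded DNA at the fork. Rpa2 had 128, 122 and 115 CPM with NETs against 93.8, 85.5 and 112 CPM with vehicle, without overlap (log2 fold change 0.34, SE 0.10; edgeR adjusted p = 0.223). Rpa1, the large DNA-binding subunit, had 471, 441 and 421 CPM with NETs against 373, 350 and 416 CPM with vehicle, also without overlap (0.24, SE 0.09; edgeR adjusted p = 0.276). Rpa3 stood at 0.23 (SE 0.12) with overlapping groups.

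Fen1 and Lig1 trim and seal the fragments of the lagging strand. Fen1 (ENSMUSG00000024742; chromosome 19, 10199132 to 10204169) had 19.5, 18.4 and 20.8 CPM with NETs against 14.9, 9.52 and 15.2 CPM with vehicle. It did not overlap between groups and had the highest log2 fold change of the 56 genes, 0.58 (SE 0.18), a 1.5-fold difference with an edgeR adjusted p of 0.229. Tmem258, which overlaps it, stood at 0.22 (SE 0.10; edgeR adjusted p = 0.394). Lig1, DNA ligase, had 433, 412 and 351 CPM with NETs against 359, 294 and 345 CPM with vehicle (0.27, SE 0.10; edgeR adjusted p = 0.271), and vehicle replicate 1 lay above NETs replicate 3.

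The enzymes of nucleotide supply all had a log2 fold change above 0, between 0.15 and 0.25. Rrm2, the subunit of ribonucleotide reductase that limits its activity in S phase, had 524, 537 and 501 CPM with NETs against 465, 437 and 499 CPM with vehicle. The groups met without overlap at NETs replicate 3 and vehicle replicate 3 (log2 fold change 0.17, SE 0.08; edgeR adjusted p = 0.392). Tk1, thymidine kinase, had 166, 154 and 150 CPM with NETs against 147, 125 and 141 CPM with vehicle, without overlap (0.20, SE 0.09; edgeR adjusted p = 0.355). Dut, which removes dUTP, stood at 0.25 (SE 0.10) and Rrm1 at 0.15 (SE 0.10). The ratio of Rrm2 to Rrm1 in FPKM was 1.497 ± 0.138 with NETs and 1.473 ± 0.0951 with vehicle.

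E2f1, an activator and itself an E2F target, had 91.7, 70.3 and 71.8 CPM with NETs against 57.4, 45.6 and 76.0 CPM with vehicle, where vehicle replicate 3 stood above NETs replicates 2 and 3 (log2 fold change 0.40, SE 0.16; edgeR adjusted p = 0.326). E2f2, the most abundant of the 5 in FPKM, stood at 0.22 (SE 0.09) and E2f3 at 0.08 (SE 0.11). E2f7, an atypical E2F that represses E2F targets, had 48.2, 50.3 and 53.1 CPM with NETs against 59.6, 59.3 and 55.1 CPM with vehicle. All NETs libraries lay below all vehicle libraries (log2 fold change −0.19, SE 0.10; edgeR adjusted p = 0.444), while its relative E2f8 stood at 0.06 (SE 0.09). E2f7 took 10.7% ± 0.564 of the summed FPKM of the 5 factors with NETs and 13.5% ± 0.901 with vehicle.

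Genes that rebuild chromatin behind the fork had a median of 0.28. Uhrf1, which brings the maintenance methyltransferase to newly copied DNA, had 509, 494 and 435 CPM with NETs against 396, 315 and 447 CPM with vehicle (log2 fold change 0.32, SE 0.11; edgeR adjusted p = 0.262), overlapping through vehicle replicate 3. Chaf1a, the large subunit of the histone chaperone CAF-1, stood at 0.28 (SE 0.13) and Chaf1b at 0.20 (SE 0.13). Chaf1a shares 52.5% of its exonic bases with Ubxn6 on the opposite strand, which had a log2 fold change of 0.07.

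**Figure D5:**
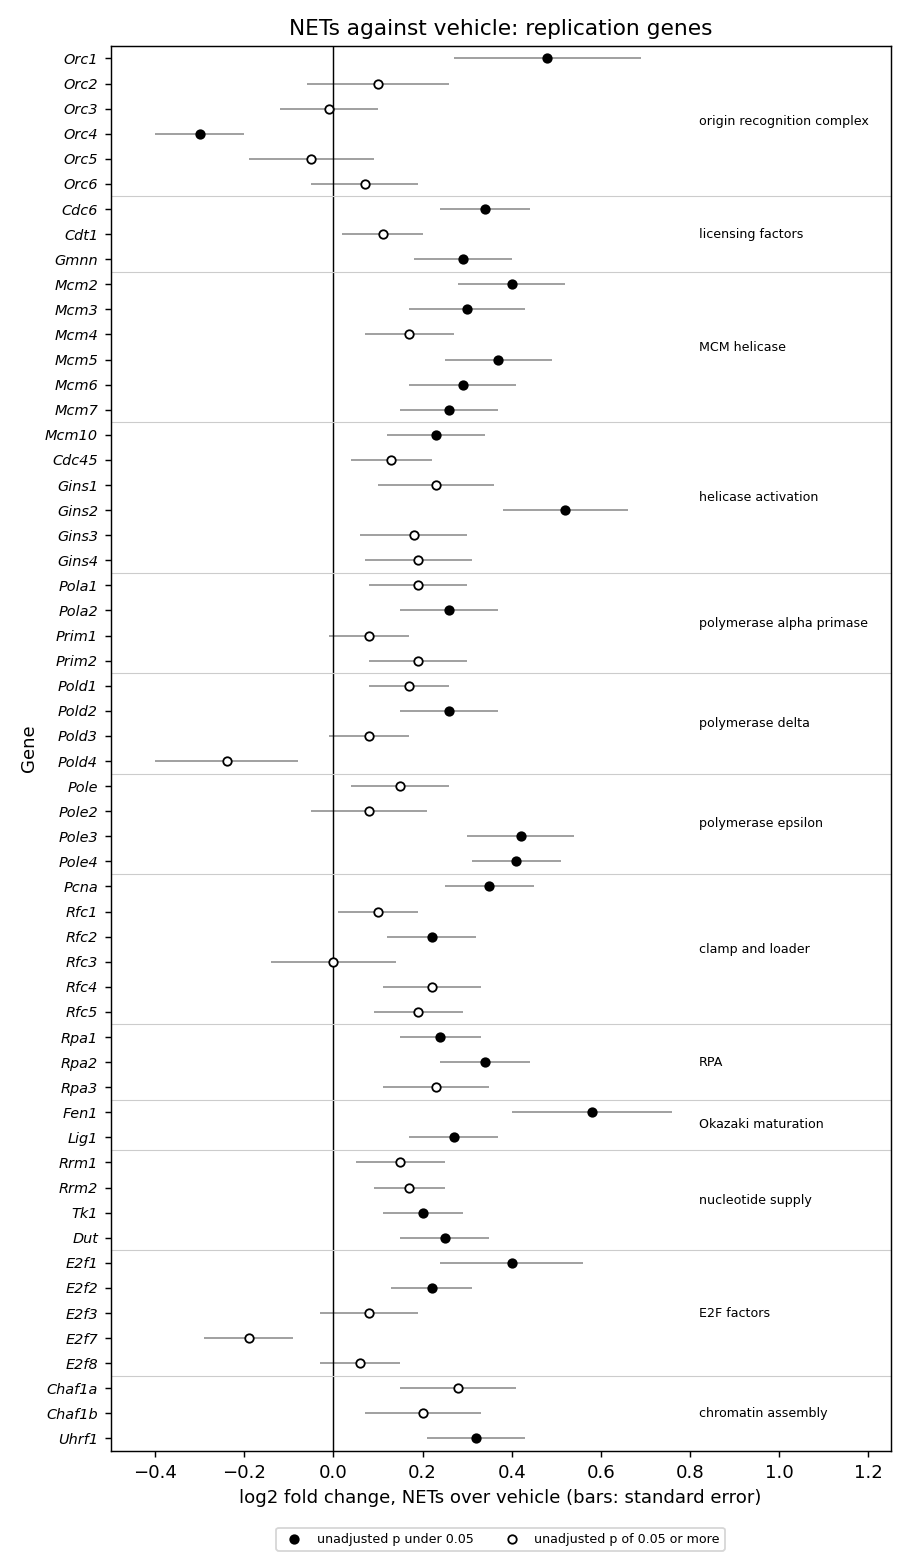
Log2 fold change, NETs over vehicle (x axis), with its standard error (bars) for each of the 56 genes (y axis, grouped by role); filled points have an unadjusted p under 0.05 by edgeR, and no gene passes after adjustment. Points run from −0.30 for Orc4 to 0.58 for Fen1, and 50 lie above 0.

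Other genes of the same pathway, 59 in 5 lists, had a median log2 fold change of 0.08, with 42 above 0 (50.2% of all genes tested). At an unadjusted p under 0.05 by edgeR, 12 of the 59 were higher (6.72% of all genes) and 1, Samhd1, was lower (6.06%). Among origin firing kinases and factors 6 of 10 were above 0, with a median of 0.06. Ccne1, the cyclin that drives entry into S phase, averaged 80.9 ± 5.05 CPM with NETs and 62.9 ± 7.27 CPM with vehicle, without overlap (log2 fold change 0.37, SE 0.10; edgeR adjusted p = 0.223), and Dbf4, the activating partner of the Cdc7 kinase, stood at −0.09 (SE 0.08). Of the fork protection genes, 17 of 20 stood above 0 (median 0.12), including 2 parts of an alternative clamp loader, Chtf18 (0.28, SE 0.09) and Chtf8 (0.25, SE 0.09).

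Replication-coupled chromatin genes were above 0 in all 9 cases (median 0.20), among them the FACT subunit Ssrp1 (0.26, SE 0.10) and the histone chaperone Asf1b (0.20, SE 0.09). Of the other nucleotide supply genes, 5 of 8 stood above 0 (median 0.18). Samhd1, which degrades deoxynucleotides, averaged 897 ± 88.2 CPM with NETs and 1156 ± 206 CPM with vehicle (log2 fold change −0.36, SE 0.12; edgeR adjusted p = 0.265), and Dtymk, thymidylate kinase, averaged 117 ± 2.63 and 101 ± 11.4 CPM (0.23, SE 0.09; edgeR adjusted p = 0.322). The Rb family and other E2F factors stood above 0 in 5 of 12 cases (median −0.03), and 0 were at an unadjusted p under 0.05 by edgeR. The E2F partner Tfdp1 stood at 0.21 (SE 0.13) and E2f4 at 0.14 (SE 0.09).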

How the data were processed

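Raw counts of reads by gene and FPKM values were deposited by the authors, in units given per the file headers; a second count table was identical. STAR, DESeq2 and mm9 are listed in the submitters' processing notes; their roles and versions, the counter, the annotation and strand use are not stated there. Deposited coordinates equalled those of GRCm38 for 98.3% of the genes also annotated there and for 54 of the 56 replication genes, all but Pola2 and Pold4. Without strand, reads of overlapping genes cannot be told apart; 21 of the 56 share exonic bases with another gene. The gene length behind the deposited FPKM was the same in all libraries within 0.1% and had a median of 0.426 of the listed length over the 56 genes, so FPKM ranks depend on it.

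Counts were filtered with filterByExpr (13900 genes, 0.135% of reads outside), scaled by TMM and tested with edgeR 4.0.16 (quasi-likelihood, robust, group only, two-sided, Benjamini-Hochberg over all genes tested, threshold 0.05) in R 4.3.3. Alternatives used DESeq2 1.42.0 and limma 3.58.1 (voom, and log2 of FPKM + 1 or + 0.1). The tests were also run on simulated counts with independent genes and no shift shared by a whole library. That setting does not cover the library differences described above, and its outcome is not given here. CPM uses library totals. Counting error was not measured on its own, and reads were fewest for Fen1 (149 to 357 a library) and Orc1 (157 to 393). The common biological coefficient of variation was 0.134. Members and lists were chosen with earlier results of these data known. All 56 members are named, with the 2 genes of smallest p in each of the 5 other pathway lists; overlapping genes were named after their values were seen.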

Additional observations from a re-analysis of the deposited data

How the results depend on the processing

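Over 16 alternatives, 852 of 893 single-gene values with an adjusted p kept their direction and side of the threshold, 26 passed it, all without vehicle replicate 3, with no filter or with DESeq2, and 15 changed sign; 3 more, from DESeq2, had no adjusted p. The sign changes were at Orc3 (0.06, 0.03 and 0.05 without NETs replicate 1, NETs replicate 3 and vehicle replicate 3), Orc5 (0.03, 0.02 and 0.01 without NETs replicate 1, NETs replicate 3 and vehicle replicate 2), Orc2 (−0.02 and 0.00 without NETs replicate 2 and vehicle replicate 1), Orc6 (−0.09 and 0.00 without NETs replicate 2 and vehicle replicate 2), Pole2 (−0.06 without vehicle replicate 2) and Rfc3, just under 0 as reported (0.01 with no filter; 0.14, 0.02 and 0.09 without NETs replicate 3, vehicle replicate 1 and vehicle replicate 3). Over leave-one-out fits Orc2 ranged from −0.02 to 0.29, Orc3 from −0.12 to 0.06, Orc5 from −0.21 to 0.03, Orc6 from −0.09 to 0.16, Pole2 from −0.06 to 0.15 and Rfc3 from −0.11 to 0.14. Called genes, 0 of all in the reported fit, were 145 with DESeq2, 322 with no filter, 1 with limma-voom, 2 with FPKM and a pseudocount of 1, and 0 to 405 leaving out 1 library; of the 56 they were 3, 10, 0, 0 and 0 to 13. Why these tests differ was not tested. The 25 genes higher at an unadjusted p under 0.05, a count followed after seeing the data, were 16 with FPKM and a pseudocount of 1 (5.97% of all genes in that fit), 15 with 0.1 and no filter (3.89%), and 9 (4.0%) to 35 (11%) leaving out 1 library. The number above 0 stayed between 48 and 53. Under other edgeR scalings the median log2 fold change of all genes lay between −0.012 and −0.004. The labels do not say that a shared replicate number marks a shared animal or day, so the numbers were not taken as pairs. Same-numbered libraries did not deviate together (correlations of −0.0254, −0.0596 and −0.175), but 3 libraries a group are too few to exclude pairs. With the replicate block in edgeR 0 of the 56 were called, and 21 were higher at an unadjusted p under 0.05 (5.14% of all genes).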
